A study of Sus scrofa with 23 samples.

Results

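The genes described here carry the symbols given to proteins of the mitochondrial ribosome and of the TOM and TIM protein import machinery. They were measured in articular cartilage of pigs. A probe set, the group of short probes that reads one transcript on the Affymetrix Porcine Genome Array, was taken as a member when the array's annotation gave it exactly 1 gene symbol starting with MRPL, MRPS, TIMM or TOMM followed by a digit. This chose 99 of the 24123 probe sets on the array, which stand for 76 of the 6765 genes that the annotation names in this way. Of these, 51 probe sets (36 genes) carry symbols of the large ribosomal subunit and 26 (22 genes) of the small subunit. Another 15 (11 genes) belong to the TIMM family and 7 (7 genes) to the TOMM family. Families follow the symbol alone, so MRPS30 and MRPS36 count with the small subunit throughout, although both are now placed elsewhere, as given below. TOMM34 likewise counts with the TOMM family by its symbol, and whether each gene is a subunit of the TOM complex was not assessed. A filter on low values kept 93 members for testing, and all 76 genes still had at least 1 probe set. The 6 probe sets left out were 1 each for MRPL3, MRPL15, MRPL46, MRPL52, MRPS12 and TIMM44. TOMM40, TIMM17A and TIMM23 were not among the members and were not analysed here.

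Mitochondria keep a small genome of their own, and its few protein products, all of them core subunits of the respiratory chain or ATP synthase, are made on the mitochondrial ribosome. Every protein of that ribosome is encoded in the nucleus (MRPL genes for the large subunit, MRPS genes for the small one), made in the cytosol and imported through the TOM complex of the outer membrane and the TIM complexes of the inner membrane. Mature articular cartilage has no blood vessels and its chondrocytes live at low oxygen and rely largely on glycolysis. Their mitochondria therefore supply a smaller share of ATP than in most tissues. Endothelial markers were also measured in the samples described here, as given below.

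The animals came from a Duroc x Pietrain cross, and the series set cartilage of pigs with osteochondrosis, a failure of cartilage to turn into bone at the joint surface, beside cartilage of non-affected sibs. Cartilage was sampled at the medial part of the condyle of the humerus (8 arrays affected, 6 non-affected) or at the medial condyle of the femur (4 affected, 5 non-affected). Affected arrays 5 and 6 of the humerus and non-affected arrays 1 and 2 of the femur agreed so closely (SD of their difference over all probe sets 0.108 and 0.214 on the log2 scale) that each pair was averaged and counted as 1 sample. That left 7 affected and 6 non-affected humerus samples and 4 affected and 4 non-affected femur samples. The labels do not say which animals were sibs or that each array is a separate animal, so the spread behind each p-value may be technical in part.

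The deposited values are log2 intensities, and a difference of 1 is a doubling of signal. The chondrocyte markers ACAN, COMP, COL2A1, COL11A1, HAPLN1 and SOX9 were measured in every sample and none was at the floor of the scale. On its brighter probe set ACAN, the aggrecan core protein, lay between 13.1 and 14.0, and COMP, a matrix protein of cartilage, between 13.4 and 14.0. The first principal component over all probe sets (43.5% of the variance) placed femur samples between 26.9 and 58.4 and humerus samples between -53.2 and -0.80, apart from non-affected humerus sample 5 at 29.0. The 27 hybridisation controls, which are spiked in after labelling and contain no pig RNA, had sample means of 11.63 to 11.80 in the femur and 10.47 to 10.79 in the humerus, while the 39 poly-A controls, added before labelling, differed by a median of -0.04 and overlapped. Site and array handling therefore cannot be told apart, while affected and non-affected samples were compared within a site. In whole tissue, fewer cells of a type and less RNA per cell cannot be told apart either.

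Averaged over all 99 members, including the 6 left out by the filter, affected femur cartilage had the lowest level of the 4 groups. The 4 affected femur samples stood at 7.64, 7.70, 7.74 and 7.71, and the 4 non-affected ones at 7.91, 7.83, 7.82 and 7.86, with means of 7.70 ± 0.04 and 7.86 ± 0.04 (SD, n = 4 each). These femur groups did not overlap. In the humerus the member mean ran from 7.92 to 8.08 in affected samples (7.97 ± 0.06, n = 7) and from 7.88 to 8.02 in non-affected samples (7.96 ± 0.05, n = 6), ranges that overlapped over most of their length. After quantile normalisation, which gives every array the same distribution of values, the femur groups were again apart, at 7.74 to 7.84 in affected and 7.91 to 7.98 in non-affected samples. On that scale the non-affected femur samples lay within the humerus range of 7.80 to 8.05, and as deposited the upper part of their range already overlapped the humerus. The mean over all probe sets overlapped between the femur groups, at 6.48 to 6.54 in affected and 6.45 to 6.50 in non-affected samples.

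**Figure D1:**
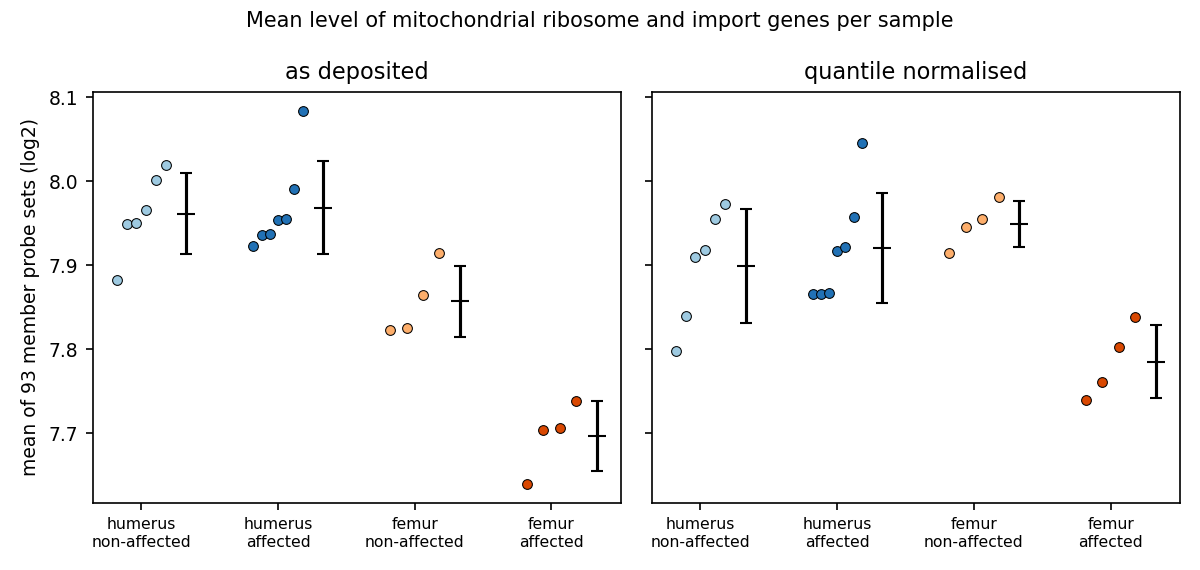
Mean log2 level over all 99 members, including the 6 left out by the filter, in each of the 21 samples, by site and status. Panels show values as deposited and after quantile normalisation, points are samples and bars are the group mean ± SD. The axis label counts 93, the number tested. The 4 affected femur samples lie below the 4 non-affected femur samples on both scales, and the humerus groups overlap.

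The status comparison in the femur asked which members differed between affected and non-affected femoral cartilage. Of 93 members, 75 had a lower group mean in affected cartilage and 18 a higher one, with a median difference of -0.13. Over all 16799 probe sets tested, 48.9% had a difference below 0 and the median was 0.01. One member, MRPL18, passed the test of a limma model with Benjamini-Hochberg adjustment over all probe sets at an adjusted p under 0.05. The background is 192 called probe sets, 1.14% of those tested (0.75% lower), so 1 call in 93 members is near that share.

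MRPL18, a protein of the central protuberance of the large subunit, where the subunit meets the small one, fell in affected femur cartilage. The probe set called read 7.96, 8.26, 7.99 and 8.09 in the affected femur samples and 8.97, 8.71, 8.88 and 8.56 in the non-affected ones. Every affected sample lay below every non-affected sample. The difference was -0.71 ± 0.10 (SE), a 1.64-fold lower level, with an adjusted p of 0.00109 in the limma fit, and leaving out any 1 of the 21 samples kept the call at 0.00105 to 0.00637. After quantile normalisation the difference was -0.70 (adjusted p = 0.00174, background 1.1%). With the 8 femur samples fitted alone, the same difference had an adjusted p of 0.155, in a fit that called 4 probe sets in all. The humerus samples read 8.22 to 8.41 (median 8.36) in affected and 8.33 to 8.48 (median 8.41) in non-affected cartilage, and the lowest of them overlapped the highest affected femur sample. Thus the non-affected femur samples were the highest of the 4 groups for MRPL18 and none of them overlapped the humerus. A second MRPL18 probe set read 7.59, 7.67, 7.78 and 8.11 in affected and 8.10, 8.10, 8.14 and 7.995 in non-affected femur samples. Its groups overlapped through 1 affected sample, and its difference of -0.30 ± 0.12 did not pass (adjusted p = 0.194).

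The members next in order of p did not pass. MRPL44, a large-subunit protein with an RNase III-like fold, read 7.47, 7.62, 7.14 and 7.52 in affected and 8.05, 8.24, 7.81 and 7.84 in non-affected femur samples, a difference of -0.55 ± 0.14 with an adjusted p of 0.0534. Its groups did not overlap, and without humerus affected 4, femur affected 4 or femur non-affected 5 the adjusted p of MRPL44 was below the threshold, at 0.0368 to 0.0475 (0.0185 to 0.243 over all alternatives run). MRPS15, a small-subunit protein related to bacterial S15, read 8.72, 8.67, 8.70 and 8.78 in affected and 8.99, 9.08, 9.19 and 9.06 in non-affected samples. Its samples lay close together in both femur groups (SD 0.05 and 0.08) and the groups were apart, but the difference of -0.36 ± 0.11 gave an adjusted p of 0.104.

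MRPL52, a large-subunit protein, on 1 of its 2 tested probe sets read 6.47, 5.80, 5.48 and 6.14 against 6.16, 6.52, 6.63 and 6.59, a difference of -0.50 ± 0.16 (adjusted p = 0.109). Here affected sample 1 lay inside the non-affected range, and without it the adjusted p of MRPL52 was 0.0237 (0.0237 to 0.329 over the alternatives). The other MRPL52 probe set differed by -0.07 ± 0.11 (adjusted p = 0.732). MRPL35, another large-subunit protein, ran the other way on 1 of its 3 probe sets. That probe set read 5.35, 5.73, 5.91 and 5.79 in affected and 5.33, 5.10, 5.35 and 5.31 in non-affected samples, a difference of 0.42 ± 0.13 (adjusted p = 0.109, and 0.0389 without femur affected 1, in a range of 0.0389 to 0.294 over the alternatives). The other MRPL35 probe sets differed by 0.02 and 0.09. The largest difference below 0 of all was that of MRPL33, a small protein of the large subunit, at -0.75 ± 0.32 (1 of its 2 probe sets, adjusted p = 0.193; the other at -0.07), which was named after its value was seen.

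**Figure D2:**
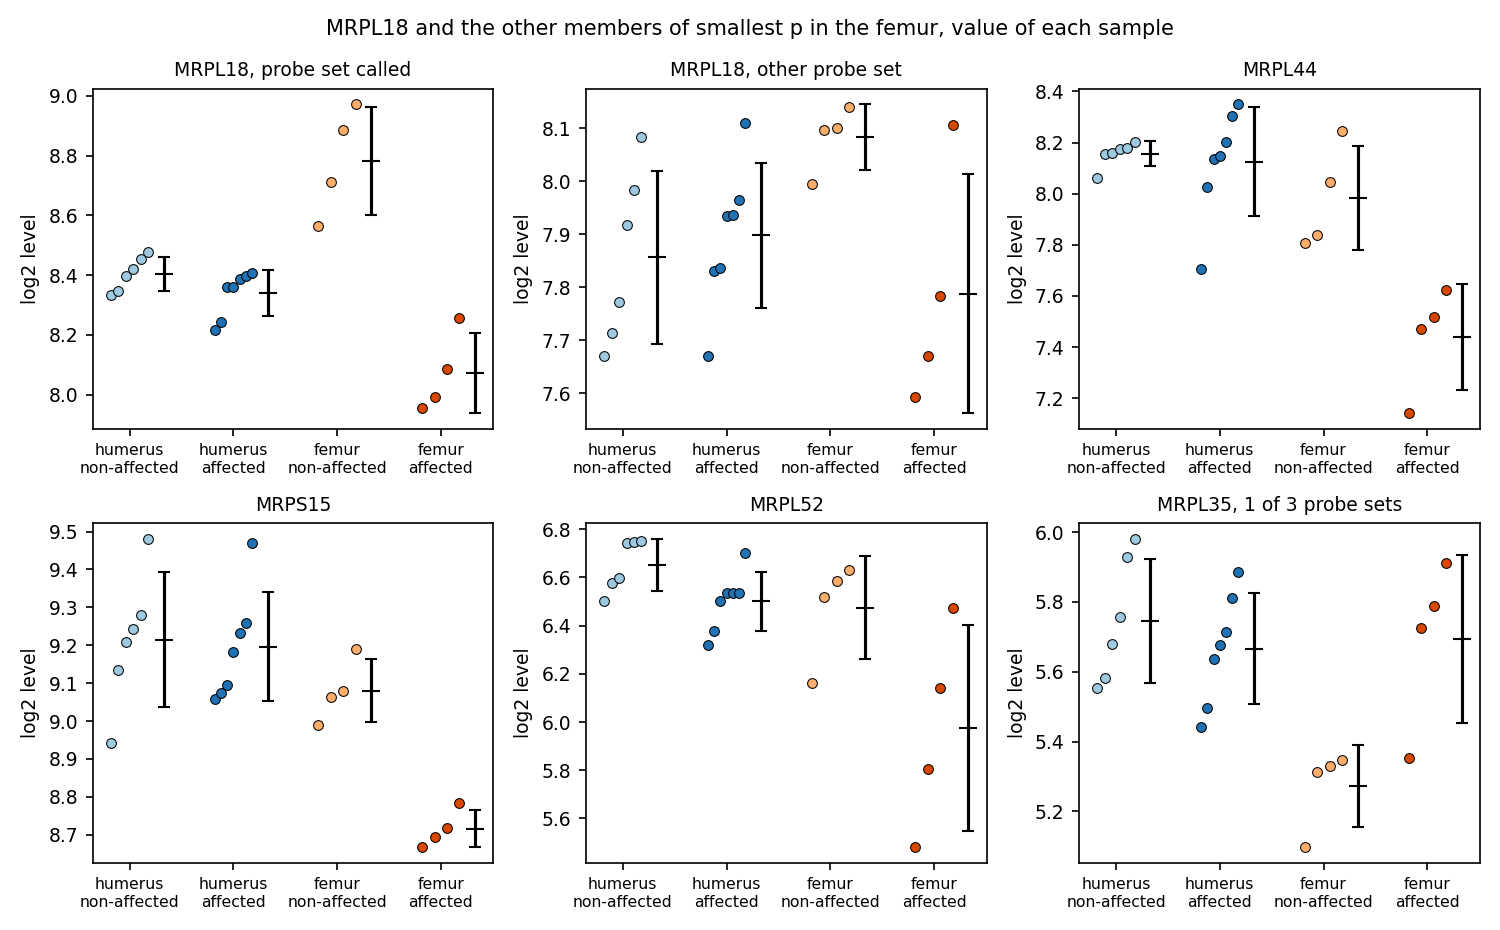
Log2 levels of both MRPL18 probe sets, MRPL44, MRPS15, MRPL52 and 1 MRPL35 probe set in the 21 samples by site and status; each point is a sample and each bar the group mean ± SD, and the y axes differ between panels. Affected femur samples lie below non-affected femur samples without overlap for the MRPL18 probe set called, MRPL44 and MRPS15, and above them for MRPL35.

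The direction was shared by the 4 families. The difference was below 0 in 37 of 47 large-subunit probe sets, 20 of 25 small-subunit probe sets, 11 of 14 TIMM probe sets and 7 of 7 TOMM probe sets. Counted by gene, 61 of 76 genes (80.3%) had all their probe sets lower in affected femur, 12 had all higher and 3 were mixed. Among the 5905 genes with a tested probe set over the whole array, 52.9% had all probe sets lower. An unadjusted p under 0.05 was reached by 19 members lower in affected femur, 20.4% of the members, against 9.95% of all probe sets, and by 1 member higher, against 10.4%.

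In 14 members all 4 affected femur samples lay below all 4 non-affected ones, 15.1% of the members, against 5.07% of all probe sets tested. Of these, 10 are large-subunit genes (MRPL3, MRPL4, MRPL10, MRPL13, MRPL14, MRPL16, MRPL18, MRPL28, MRPL43 and MRPL44), 1 is a small-subunit gene (MRPS15), 1 is the import chaperone TIMM10 and 2 are the TOM subunits TOMM5 and TOMM22, a list that follows from the values. MRPL3, MRPL18 and MRPL43 were separated on 1 of their 2 probe sets. MRPL35 was the 1 member separated the other way, against 3.01% of all probe sets. This held on 1 of its 3 probe sets, with a slight gap of 0.0051. After quantile normalisation 10 members were separated downward (background 4.81%), all of them among the 14, and none upward (3.15%). MRPL13, MRPL14, MRPL28 and TOMM5 were no longer separated on that scale, and on the deposited scale their gaps were 0.03, 0.02, 0.0025 and 0.0039, so those separations were slight. The gap of TIMM10 was also slight as deposited, at 0.0087, and was 0.047 after quantile normalisation.

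Family means per sample were taken over all 99 members, including the 6 left out by the filter. Large-subunit means ran from 7.61 to 7.70 in affected femur and from 7.84 to 7.91 in non-affected femur, with no overlap. TOMM means did not overlap either, at 8.43 to 8.67 and 8.69 to 8.80. Small-subunit means (7.49 to 7.64 against 7.59 to 7.81) and TIMM means (7.52 to 7.67 against 7.67 to 7.74) overlapped.

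Import genes were read by role, and none passed the test of status at either site. In the TOM complex, TOMM20 is the receptor for proteins with a cleavable leader, TOMM70 the receptor for carrier proteins, TOMM22 the central receptor that organises the complex, and TOMM5 a small subunit beside the channel. TOMM22 read 9.85, 9.70, 9.39 and 9.90 in affected and 9.98, 10.13, 10.04 and 9.99 in non-affected femur samples, a difference of -0.32 ± 0.14 (adjusted p = 0.220). TOMM5 read 9.90, 9.35, 9.83 and 9.51 against 10.002, 9.97, 10.06 and 9.90, a difference of -0.34 ± 0.16 (adjusted p = 0.236), and was added after its values were seen. Both TOMM22 and TOMM5 were thus separated between the femur groups by less than 0.1, while their humerus differences were 0.16 and 0.18, in the other direction. TOMM20 and TOMM70 differed by -0.14 and -0.04 in the femur and by -0.09 and -0.21 in the humerus.

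In the presequence translocase of the inner membrane, the route into the matrix for ribosomal proteins, TIMM50 is the receptor, TIMM17B part of the channel, TIMM21 a link to the TOM complex and to respiratory chain assembly, and TIMM44 the anchor of the import motor. TIMM21 was higher in affected femur by 0.49 ± 0.30 (adjusted p = 0.355), on samples that ranged widely: 7.33, 7.96, 8.04 and 7.55 in affected and 7.80, 6.98, 6.56 and 7.58 in non-affected cartilage. TIMM17B differed by -0.20, and the 2 TIMM50 probe sets by -0.13 and -0.23. The 2 tested TIMM44 probe sets did not run together, at 0.05 and -0.40.

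TIMM22, the core of the translocase for carrier proteins, differed by -0.23 ± 0.13 in the femur (adjusted p = 0.337) and by 0.19 in the humerus. The small TIMM proteins carry hydrophobic precursors across the space between the membranes. TIMM10 read 8.37, 8.47, 8.19 and 8.38 in affected and 8.54, 8.54, 8.64 and 8.48 in non-affected femur samples, which did not overlap, with a difference of -0.20 ± 0.14. TIMM13 (-0.25), TIMM8B (-0.13) and TIMM8A (-0.07) lay below 0 and TIMM9 (0.06) just above it. No adjusted p among the small TIMM genes passed.

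**Figure D3:**
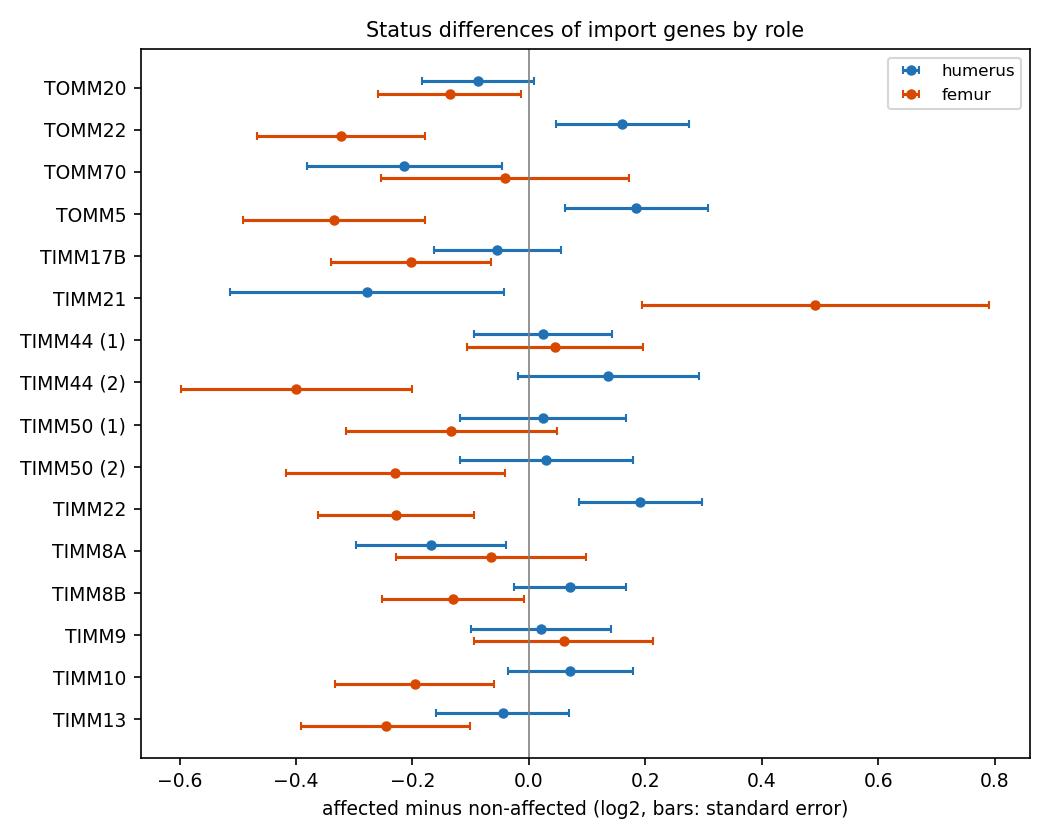
Status differences (affected minus non-affected, log2, ± SE) of the TOM and TIM genes in the femur and the humerus, grouped by role. TOMM22, TOMM5, TIMM22 and TIMM10 lie below 0 in the femur and above 0 in the humerus, and none of the differences passed the adjusted threshold.

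Markers of other cell types were read in the femur groups as well. The 9 tested macrophage probe sets were all lower in affected femur, with a median difference of -1.87 (0 called, 8 with an unadjusted p under 0.05). Averaged over the whole macrophage list, with probe sets left out by the filter, affected femur samples ran from 4.72 to 5.99. Non-affected femur samples ran from 5.83 to 7.30. AIF1 was at the floor of the scale in 2 of the 4 affected femur samples, and TYROBP, FCER1G and C1QA in 1 each. Endothelial markers were lower in 9 of 10 tested probe sets (median -0.66), and chondrocyte markers were higher in 9 of 10 (median 0.23). Means over the whole chondrocyte list, filter not applied, were 9.71 to 10.1 in affected and 9.32 to 9.65 in non-affected femur samples. Whole-list means in affected and non-affected femur were 5.26 and 4.80 for neutrophil, 6.88 and 6.66 for osteoblast and 6.05 and 5.64 for erythroid markers. They were 5.99 and 6.17 for skeletal muscle, 5.89 and 6.14 for adipocyte, 6.34 and 6.75 for osteoclast and 8.09 and 8.23 for fibrous tissue. Affected and non-affected femur samples overlapped in each of these lists, and in the macrophage and endothelial lists. In the humerus the 9 macrophage probe sets were all higher in affected cartilage (median 0.85). The part of these cell types in the member differences was not tested.

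The status comparison in the humerus called no member and no probe set at all (background 0%). Differences were above 0 in 51 members and below 0 in 42 (53.4% of all probe sets were below 0), with a median of 0.01 beside -0.01 over all probe sets. An unadjusted p under 0.05 was reached by 3 members, 3.23% of them, against 6.55% of all probe sets. The smallest p belonged to MRPL4, a large-subunit protein near the exit tunnel, which read 6.92 to 7.41 (median 6.99) in affected and 6.66 to 7.06 (median 6.87) in non-affected humerus samples, a difference of 0.24 ± 0.10. MRPS21, a small-subunit protein, read 9.96 to 10.51 (median 10.28) against 9.80 to 10.25 (median 10.04), a difference of 0.25 ± 0.11, and MRPL19 differed by -0.27 ± 0.13. Adjusted p was 0.759 to 0.761 for these genes and 0.769 for MRPS7 (0.28) and TIMM22 (0.19). The groups overlapped for all 93 members, where 0.161% of all probe sets were separated with affected cartilage lower and 0.0595% with it higher.

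Whether the status difference itself differed between the sites was tested with the interaction term (femur difference minus humerus difference). It was below 0 in 71 of 93 members, with a median of -0.17, against 46.5% and a median of 0.04 over all probe sets. MRPL18 passed, at -0.65 ± 0.13 (adjusted p = 0.0373), where 45 of all probe sets, 0.268%, were called (0.226% lower). After quantile normalisation its adjusted p was 0.0461, with 0.185% of all probe sets called. This call was close to the threshold: it was kept without any 1 of 7 samples (humerus affected 3 or 8, humerus non-affected 2, femur affected 1, 2 or 4, femur non-affected 5; adjusted p 0.0225 to 0.0464) and lost without any 1 of the other 14 (0.0538 to 0.0935). The next members by p were MRPL4 (-0.60 ± 0.17, adjusted p = 0.111), MRPL46 (-0.52, 0.139), MRPL44 (-0.51, 0.155) and MRPL35 (0.50, 0.158). MRPL4 differed in opposite directions at the 2 sites: affected samples averaged 6.73 against 7.09 in the femur and 7.10 against 6.85 in the humerus. On 1 of its 2 probe sets MRPL46, a large-subunit protein, averaged 7.15 against 7.55 in the femur and 7.64 against 7.51 in the humerus. The other MRPL46 probe set differed by -0.31 in the femur and by 0.0017 in the humerus.

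By direction alone, 44 members (47.3%, all probe sets 26.5%) were lower in affected femur and not in affected humerus, and 11 (11.8%, all probe sets 31.1%) the reverse. Another 31 were lower in affected cartilage at both sites and 7 higher at both. The affected femur held the lowest of the 4 group means for 56 of 93 members, 60.2%, against 32.2% of all probe sets. After quantile normalisation it held the lowest mean for 47 members, 50.5%, against 25.9%.

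**Figure D4:**
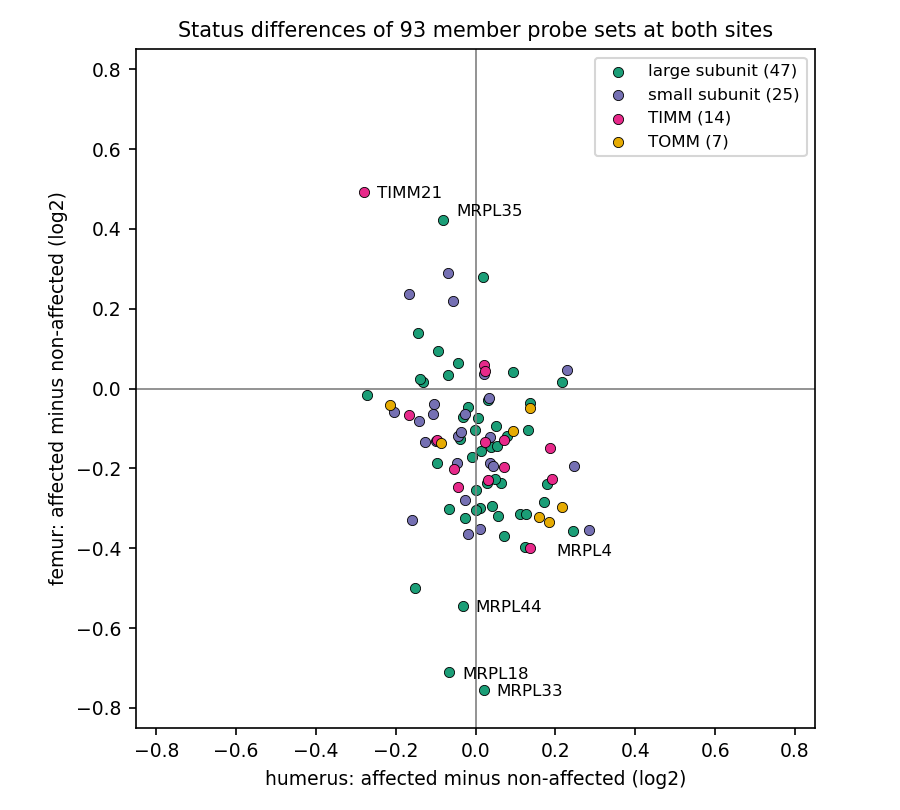
Status difference (affected minus non-affected, log2) of each of the 93 tested members in the humerus (x axis) and the femur (y axis), by family, with lines at 0. Most points lie below 0 on the y axis (75 of 93) and on both sides of 0 on the x axis (51 above, 42 below), with MRPL18 among the lowest.

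With site as a term of the model, the status comparison over the humerus and femur together called no member and no probe set (background 0%). Differences were below 0 in 68 of 93 members (all probe sets 52.9%), with a median of -0.05 beside -0.01 over all probe sets, and 4 members had an unadjusted p under 0.05 and were lower (all probe sets 3.79%). The smallest p belonged to MRPL18 (-0.31, adjusted p = 0.599), followed by MRPL52 (-0.28), MRPL44 (-0.23), MRPL43 (-0.16) and MRPS14 (-0.22), for MRPL18, MRPL52 and MRPL43 on 1 of their 2 probe sets. When both sites were given equal weight, MRPL18 passed at -0.39 (adjusted p = 0.0138), where 0.131% of all probe sets were called.

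Femur against humerus, with status in the model, called 49 of 93 members, 12 higher and 37 lower in the femur. More of the array was called than not in this comparison (51.8%, with 17.6% higher and 34.2% lower), so the count is close to the background, and hybridisation controls differed between the sites by a median of 1.41. The member median was -0.19 beside -0.12 over all probe sets. Quantile normalisation moved the median of all probe sets by 0.15, to 0.03, and the member median to -0.03, and it called 47 members, 18 higher and 29 lower (background 51.4%, 28.2% higher and 23.2% lower). On both scales the same 29 members were lower and the same 12 higher. A further 8 were lower as deposited alone, 6 were higher after normalisation alone, and no member called on either scale changed sign. Of all 93 members, 15 had a difference of another sign after normalisation, none of them called. Without non-affected humerus sample 5, which lay with the femur on the first principal component, 50 members were called with a median of -0.17. In that fit 52.9% of all probe sets were called, so this count too is close to the background. Macrophage markers were lower in the femur in 9 of 9 probe sets (8 called, median -1.995), neutrophil markers in 13 of 13 (12 called, median -3.09) and endothelial markers in 9 of 10 (7 called, median -1.96), and their part in the member differences was not tested.

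Of the 8 called members with the largest differences below 0, 7 carry MRPL or MRPS symbols, as do 72 of the 93 tested. MRPL32, a large-subunit protein whose maturation in mitochondria is needed for ribosome assembly, ran from 5.07 to 5.63 (median 5.37) in 8 femur samples and from 5.85 to 6.65 (median 6.13) in 13 humerus samples, a difference of -0.88 ± 0.11, and its other probe set fell with a difference of -0.39. MRPL50 (5.79 to 6.71 against 6.87 to 7.57, difference -0.88 ± 0.12) and MRPL39 (7.15 to 7.65 against 7.67 to 8.45, -0.83 ± 0.10), both large-subunit proteins, were likewise without overlap as deposited. MRPL19 was separated narrowly on that scale, at 6.25 to 6.78 against 6.79 to 7.85 (-0.87 ± 0.11). Among import genes TOMM5 fell most, from 10.16 to 11.12 in the humerus to 9.35 to 10.06 in the femur (-0.78 ± 0.11), also without overlap.

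The groups overlapped for MRPS36, MRPS30 and MRPS35, which fell with differences of -0.91 ± 0.19, -0.91 ± 0.18 and -0.82 ± 0.17. MRPS36 was named as a small-subunit protein and is now known as a part of the oxoglutarate dehydrogenase complex, and MRPS30 is now placed in the large subunit. MRPS36 ran from 4.02 to 5.55 in the femur and from 4.85 to 6.29 in the humerus, and its lowest sample, femur affected 1, was at the floor of the scale, so its level there is only an upper bound. MRPS30 ran from 5.38 to 6.95 against 6.70 to 7.62.

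MRPL38, a large-subunit protein, rose most in the femur on 1 of its 2 probe sets, from 5.89 to 6.83 (median 6.43) in the humerus to 6.99 to 7.48 (median 7.36), a difference of 0.88 ± 0.10 (adjusted p = 1.03e-06). The other MRPL38 probe set differed by 0.02 ± 0.08 (adjusted p = 0.847). As deposited, the first was the 1 member with all femur samples above all humerus samples (1.73% of all probe sets), against 8 members with all femur samples below (2.78%): MRPL3, MRPL19, MRPL32, MRPL39, MRPL43, MRPL50, MRPS9 and TOMM5. After quantile normalisation 4 members were separated below (1.18%), MRPL3, MRPL32, MRPL43 and TOMM5, and 4 above (3.99%), MRPL38, MRPS26, TIMM44 and the other probe set of MRPS9. MRPS26 rose by 0.58 ± 0.09 (10.11 to 10.68 in the femur, 9.55 to 10.22 in the humerus), 1 probe set of TIMM44 by 0.54 ± 0.09 (6.70 to 7.28 against 6.23 to 6.81) and 1 of 2 probe sets of MRPS2 by 0.47 ± 0.08, with the other at 0.02. MRPL54 (0.41), TIMM17B (0.34), MRPL48 (0.31) and 1 probe set of MRPS12 (0.26) completed the largest rises.

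By family, the calls in the femur against the humerus were 6 higher and 18 lower in the large subunit, 4 and 11 in the small subunit, 2 and 5 in TIMM, and 0 and 3 in TOMM. The small chaperones TIMM8A (-0.66), TIMM9 (-0.39), TIMM8B (-0.37), TIMM13 (-0.34) and TIMM10 (-0.27) fell in the femur, and so did TOMM22 (-0.48) and, named after its value was seen, TOMM40L (-0.47), a relative of the outer membrane channel. The receptors TOMM20 (0.04) and TOMM70 (-0.09), the TIMM50 probe sets (0.00 and -0.27), TIMM21 (-0.41) and TIMM22 (0.17) did not pass. These directions are those of the deposited scale, on which the median of all probe sets was -0.12.

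**Figure D5:**
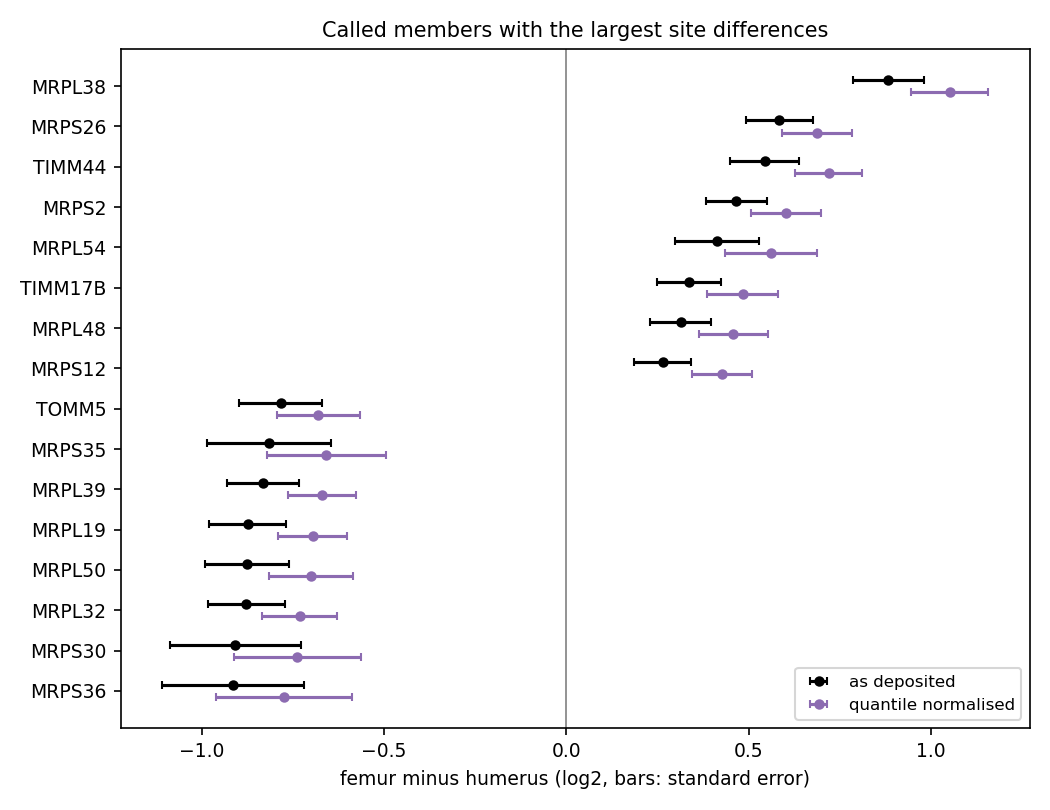
Femur minus humerus difference (log2, bars ± SE) of the 8 called members with the largest differences in each direction, as deposited and after quantile normalisation. Each keeps its direction on both scales, and quantile normalisation moves every one upward.

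Within non-affected samples the femur against humerus comparison called 36 members, 11 higher and 25 lower (background 36.6%, 11.6% higher and 25% lower), with a median of -0.03. Within affected samples 48 were called, 5 higher and 43 lower (background 38.5%, 13.9% higher and 24.6% lower), with a median of -0.31, beside -0.11 over all probe sets. After quantile normalisation the counts were 32 within non-affected samples, 18 higher and 14 lower (background 36%, 19.8% higher and 16.2% lower; member median 0.11), and 36 within affected samples, 11 higher and 25 lower (background 37.8%, 21.6% higher and 16.2% lower; member median -0.16). The interaction term given for status is the same contrast, and of the members MRPL18 alone passed it.

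Probe sets of 1 gene did not always run together. Of the 16 genes with several tested probe sets, 7 had differences of opposite sign between femur and humerus, and in 6 of these a probe set was called. MRPL43 read -0.60 and 0.21, MRPS9 -0.53 and 0.17, MRPS12 -0.32 and 0.26, TIMM44 0.54 and -0.28, MRPL35 -0.64, 0.25 and -0.22, and MRPL33 -0.42 and 0.00. For status in the femur, 3 of the 16 genes had probe sets of opposite sign and none of those was called. Values of these genes are given by probe set.

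Genes that work with the members were read from lists in the same fit. Ribosomal proteins of mitochondria under other symbols were lower in affected femur in 6 of 7 probe sets (median -0.08, 0 called), with GADD45GIP1 at -0.35, PTCD3 at -0.34 and CHCHD1 at -0.21. Genes of mitochondrial translation and ribosome assembly were lower in 17 of 21 (median -0.16, 0 called), among them ERAL1, a chaperone of the small subunit's RNA, at -0.35, OXA1L, which inserts the new proteins into the inner membrane, at -0.26 and TFB1M, an rRNA methyltransferase, at -0.32. Other import and folding genes were lower in 19 of 31 (median -0.05, 0 called), with MIPEP, a peptidase that trims imported proteins, at -0.45, and the protease LONP1 at 0.37. Genes of mitochondrial biogenesis and transcription were higher in affected femur in 5 of 8 (median 0.14, 0 called), beside 51.1% of all probe sets. Their whole-list means overlapped, at 6.15 to 6.56 in affected and 6.03 to 6.45 in non-affected femur samples. In this list TFAM, which packs and transcribes the mitochondrial genome, differed by 0.71 and the deacetylase SIRT3 by -0.47.

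Subunits of the respiratory chain and ATP synthase, the destination of what the mitochondrial ribosome makes, were lower in affected femur in 55 of 65 probe sets (median -0.21) and higher in affected humerus in 55 of 65 (median 0.14), with no probe set called at either site. The smallest p in the femur belonged to ATP5J (0.48, adjusted p = 0.0841), NDUFB4 (-0.47) and NDUFA13 (-0.38). Cytosolic ribosomal proteins were lower in affected femur in 56 of 83 (median -0.04) and after quantile normalisation in 48 of 83 (median -0.01). Of these, 1 probe set, of FAU, which encodes a ribosomal protein fused to a ubiquitin-like one, was called, at -2.89. Over all probe sets 1.14% were called, so 1 call in 83 is near that share.

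Within a group, the median SD of the 93 members over samples was 0.19 in affected humerus, 0.19 in non-affected humerus, 0.20 in affected femur and 0.18 in non-affected femur. Over all probe sets tested the median SD was 0.25, 0.25, 0.27 and 0.26 in the same order. The most variable members were MRPL33 in affected humerus (SD 0.60), TIMM21 in non-affected humerus (0.41), MRPS36 in affected femur (0.74) and MRPS30 in non-affected femur (0.67).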

How the data were processed

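The authors deposited 1 table of log2 values, 1 column for each of 23 arrays. Total RNA was labelled from cartilage and hybridised, per the labels' protocols, and GCOS 1.1.1 is named per the submitters' processing notes; their normalisation was not given in the sources used here. Values start at a floor of 4. Of 24123 probe sets, 124 controls and the 7200 with a mean under the 30th percentile (5.30) were left out, and 16799 were tested. Arrays of a group whose difference had an SD under 0.25 were averaged, giving 21 samples. Group means were fitted with limma 3.58.1 (lmFit and eBayes, R 4.3.3), with Benjamini-Hochberg adjustment in each comparison and calls at an adjusted p under 0.05. The script was tested on simulated data. The platform annotation gave 1 symbol to 10099 probe sets, several to 198 and none listed to 13826. Figures were drawn with matplotlib 3.10.9. Members named were the 8 called with the largest differences in each direction, or the 5 of smallest p where fewer were called, plus fixed import genes, genes whose probe sets disagree, and up to 3 genes per other list. Members and lists were chosen with earlier results of these data known. The number of arrays limits precision.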

Additional observations from a re-analysis of the deposited data

Results flagged for a closer look

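In MRPL18 the status difference of the femur departed from that of the humerus by -0.65 in the interaction test given above.

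Single samples stood apart from the rest of their group (a gap to the nearest sample that is large for the group's range) in 21 of 196 sets of values examined, and chance alone flags about 1 in 20. Affected humerus sample 1 accounts for 7 of them: it was lowest for MRPL39 (7.67), MRPS36 (4.85), MRPL19 (6.79) and TIMM8A (7.73), and apart from the others for MRPS2 (8.84), TIMM17B (8.16) and TIMM50 (8.38). Affected humerus sample 2 stood apart for TIMM10 (9.20) and for the mean over the members (8.08), sample 4 for MRPL43 (7.63) and sample 7 for TIMM44 (6.23). In non-affected humerus, sample 1 stood apart for MRPL44 (8.06) and MRPL43 (8.32) and sample 2 for TOMM22 (10.70). In non-affected femur, the averaged pair 1 and 2 stood apart for TIMM9 (8.28), TIMM8B (9.96) and MRPL50 (6.71), and sample 3 for MRPL35 (5.10). In affected femur the samples were 1 for MRPS14 (8.68), 2 for TIMM50 (7.35) and 3 for MRPL48 (8.46).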

How the results depend on the processing

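No paired analysis was possible because the labels do not say which animals are sibs. In the femur, 1 member was called for status in most settings, 2 with arrays shifted to one median (1.17% of all probe sets called), 2 without the filter (1.004%), 3 with all 23 arrays as samples (3.57%, so 3 of 93 is near background) and 0 with femur samples alone (0.0238%). For status by site the count of 1 became 2 with 23 arrays (1.31% of all probe sets; MRPL4 added, adjusted p 0.0459) and 0 with array weights (MRPL18 at 0.0522). Equal weight for both sites called 1 member over both sites. MRPL44 passed in the femur with one median (0.0416) and with 23 arrays (0.0185). The member median of femur against humerus moved to -0.034 after quantile normalisation, -0.016 with one median, -0.028 within non-affected and -0.31 within affected samples. Directions turned in TIMM44 (femur status, -0.0028 with 23 arrays) and, within affected samples, MRPL35 (0.029) and MRPL33 (-0.37) between the sites.

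Leaving out 1 sample at a time gave 1 to 3 calls in the femur (median -0.19 to -0.13) and 0 to 1 by site (-0.21 to -0.14). Between the sites it gave 47 to 51 (-0.23 to -0.12), while 48.3% to 53.7% of all probe sets were called. In the humerus and over both sites it gave 0. Femur status called 2 members without humerus affected 4 (0.958% of all probe sets), femur affected 4 (2.61%) or femur non-affected 5 (1.74%), and 3 without femur affected 1 (2.68%). Signs turned for differences near 0: MRPL33 between sites (-0.14 to 0.11) and, for femur status, TIMM44 (-0.061 to 0.135), TIMM50 (-0.22 to 0.0082) and TOMM70 (-0.153 to 0.0166).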
